A study of Danio rerio with 8 samples.

Results

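The immediate early genes described here are 9 zebrafish genes of the AP-1 family and its companions, *fosb* (ENSDARG00000055751), *fosab* (ENSDARG00000031683), *fosl1a* (ENSDARG00000015355), *jun* (ENSDARG00000043531), *junba* (ENSDARG00000074378), *junbb* (ENSDARG00000104773), *jund* (ENSDARG00000067850), *egr1* (ENSDARG00000037421) and *atf3* (ENSDARG00000007823). They were taken from the 35117 genes counted in each library. The genes were chosen by their high level in sorted cells against whole embryos, as a possible response to dissociation and sorting. For that contrast their values are therefore given as a description, with no test.

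All fish carried Tg(fli1a:EGFP), in which the promoter of *fli1a*, a gene of the endothelium, drives a green fluorescent protein. The reporter is also known from pharyngeal cartilage. Sorted cells and whole embryos were compared by polyadenylated RNA sequencing. In the sorted samples, embryos of 3 days were dissociated with warm trypsin and 20000 EGFP positive cells were collected per RNA isolation, whereas each unsorted sample was 1 whole embryo of 5 days that was not dissociated. The letter of a library gives the isolation kit, A for RNAqueous micro and Q for RNeasy plus micro. Sorted sample 1 gave the libraries A_1 and Q_1. Sorted sample 2 was sequenced at another time, together with the embryos, and both its RNAs were split before cDNA synthesis into technical replicates (A_2a and A_2b, Q_2a and Q_2b). The 8 libraries thus come from 6 RNA samples, and technical replicates were summed where an RNA sample is named. All sorted cells came, by the account of the study, from the same pool of fish. Sorted sample 1, sorted sample 2 and the embryos each held 1 RNA sample of each kit. Against embryos, p-values thus rest on the spread between RNA isolations of that pool and between 2 embryos, the kit difference included. In the comparisons between runs and between kits they rest on how far the kit difference changed between runs. For Q_2 against A_2 they rest on the spread between technical replicates of 1 RNA per kit. One label of Q_1 gives the sample number 2 and another gives 1. It was taken as sample 1, and some of the results that rest on it are also given without it.

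AP-1 is a transcription factor made of pairs of leucine zipper proteins, mostly a Fos protein with a Jun protein, or 2 Jun proteins. Genes of this family are immediate early genes, which means that they are transcribed within minutes of a stimulus from factors the cell already holds, through MAP kinases and the serum response factor, and that their mRNAs are short-lived. In mammals they are known to appear in cells that are taken out of a tissue with enzymes at warm temperature. Reads counted on genes numbered between 10763174 and 19537939 per library. Levels are given as CPM, the count scaled to the total of reads counted on genes in that library, and 3 counts correspond to between 0.154 and 0.279 CPM. CPM are not corrected for gene length, so levels are compared between samples and not between genes.

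The 9 genes together took a far larger share of the counted reads in sorted cells than in whole embryos. Their summed share was 1.43% of counted reads in A_1, 1.85% in Q_1, 1.81% in A_2 and 1.79% in Q_2. In the embryos it was 0.0236% (95% Wilson interval 0.0228 to 0.0243) in A_unsorted and 0.0198% (0.0192 to 0.0204) in Q_unsorted. The lowest share of a sorted sample, that of A_1, had an interval of 1.42 to 1.43. Intervals cover counting error only, since the reads carry no molecular identifiers. For each of the 9 genes, all 4 sorted RNA samples lay above both embryos. Among all 21377 genes tested, 23.5% were called higher in sorted sample 2 than in embryos and 28.2% lower (51.7% in all). For sorted sample 1 these shares were 17.3% and 25.5% of 20254 genes (42.8% in all). A call here is an adjusted p under 0.05 in the quasi-likelihood test of edgeR with Benjamini-Hochberg adjustment over all genes tested. Since the genes were chosen on this contrast, nothing is read from their place against those shares.

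**Figure D1:**
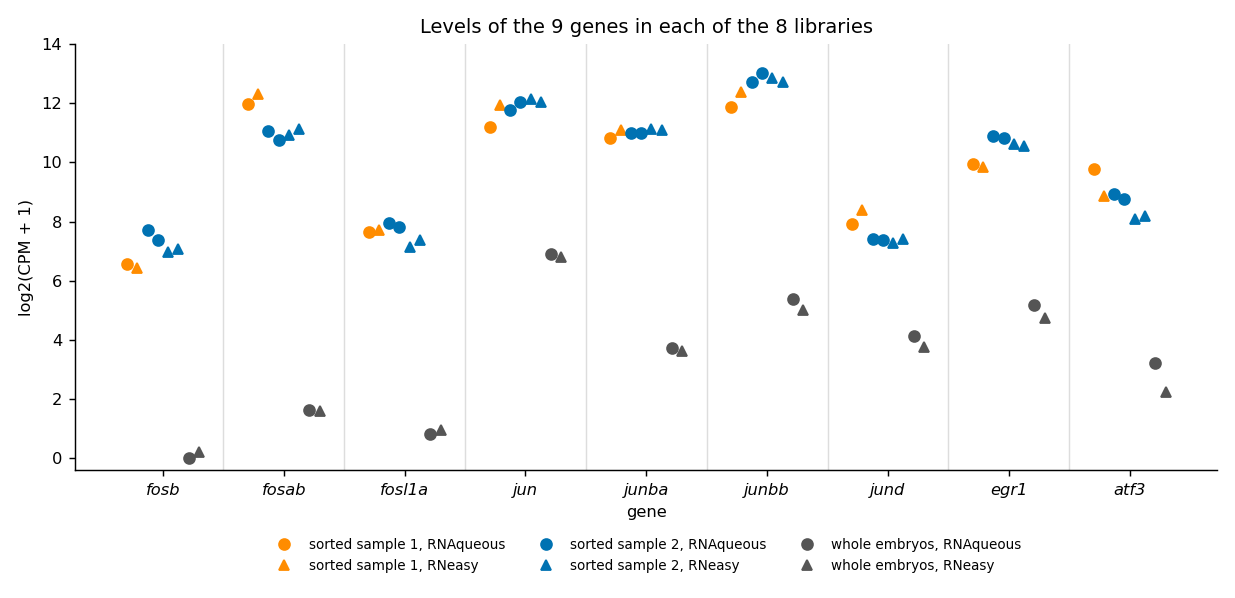
Level of each gene, as log2(CPM + 1), in each of the 8 libraries. Circles are RNAqueous and triangles RNeasy libraries; the 6 libraries of sorted cells lie above both whole embryos for all 9 genes, and the embryo levels range from 0 CPM for *fosb* in A_unsorted to 119.6 CPM for *jun*.

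The Fos genes encode the partners that form AP-1 only together with a Jun protein, and all 3 that were followed were at under 3 CPM in whole embryos, with *fosb* at the floor. *fosb* was at 92.8 CPM in A_1, 86.3 in Q_1, 192 in A_2 and 129 in Q_2. In the embryos it was at 0 counts in A_unsorted and 3 counts in Q_unsorted, the latter being 0.154 CPM. With so few embryo counts the ratio of the pooled CPM has a wide counting interval. It was 1907 for sorted sample 2 (95% exact interval 652 to 9250) and 1087 for sorted sample 1 (372 to 5276). The fitted log2 fold changes of *fosb* (10.78 and 10.16) depend on the prior count and are not a bound. Without Q_unsorted, which held all its embryo counts, they were 15.07 and 13.45.

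*fosab*, a zebrafish c-Fos gene that is used as a marker of recently activated cells, was counted at 3998 CPM in A_1 and 5078 in Q_1. The sorted samples of the second run had 1966 CPM (A_2) and 2101 (Q_2), and the embryos 2.10 and 2.05. The order was thus sorted sample 1, sorted sample 2, embryos, with no overlap between these 3 groups. The lowest sorted sample was 937 times the higher embryo. Fitted log2 fold changes against embryos were 9.89 ± 0.55 (SE, 2 against 2 RNA samples) for sorted sample 2 and 11.29 ± 0.85 for sorted sample 1. In sorted sample 1 no gene of the 20254 tested had a larger one, and in sorted sample 2 there were 5 such genes.

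The difference of *fosab* between the sorted samples depended on how reads were counted. The counts above ignore the strand, and a read that lies on 2 annotated genes is then left out as ambiguous. The files also hold counts for each strand, and there *fosab* gained many reads. Together with ENSDARG00000097234, for which the name table gives no symbol, it gained almost the same number of reads (within 49 per RNA sample), as 2 genes do that overlap on opposite strands. Counted with the strand ignored, ENSDARG00000097234 had between 0 and 101 reads per library. The protocol keeps no strand, so reads of the overlap cannot be assigned to either gene.

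The share of *fosab* reads left out in this way was 32.5% in A_1 and 32.6% in Q_1. For the second run it was 65.1% and 72.9% in the A_2 libraries (a and b) and 71.6% and 66.7% in the Q_2 libraries. In the embryos it was 40.7% (95% interval 29.1 to 53.4) and 41.2% (30.3 to 53.0), from 59 and 68 reads. The runs did not overlap in this share, and technical replicates of one RNA also differed. With the overlap reads included, *fosab* was at 5923 CPM in A_1, 7540 in Q_1, 6204 in A_2 and 6773 in Q_2, against 3.54 and 3.48 in the embryos. On that count sorted samples 1 and 2 overlapped, and the log2 fold changes against embryos were 10.81 ± 0.66 for sorted sample 2 and 11.14 ± 0.89 for sorted sample 1.

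**Figure D2:**
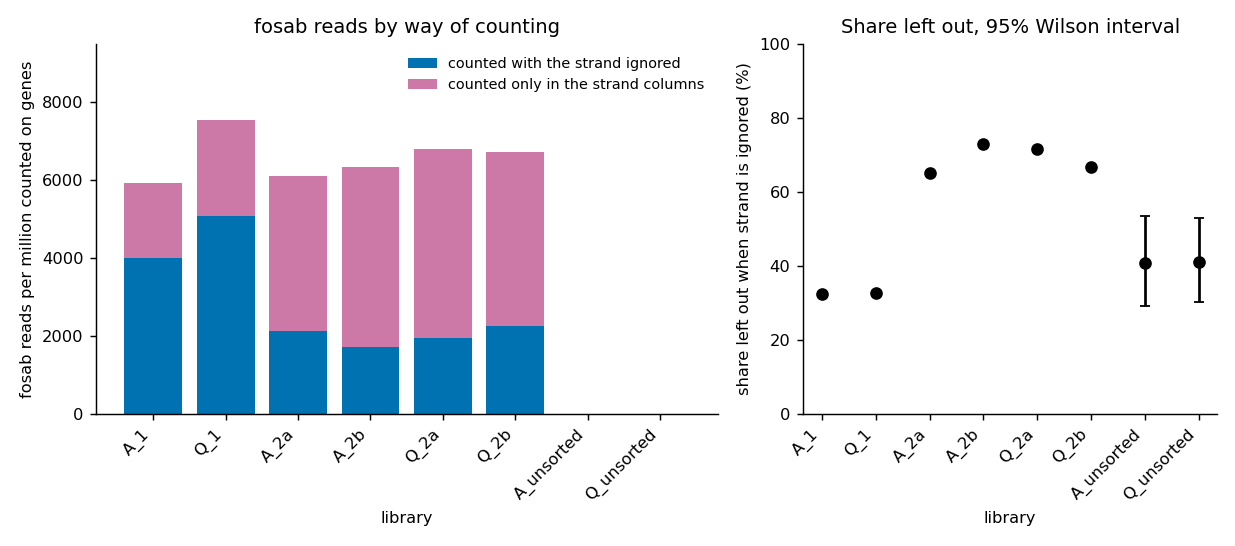
Left, *fosab* level in CPM in each library, split into those counted with the strand ignored and those counted only in the strand columns. Right, the share of *fosab* reads left out when the strand is ignored, with 95% Wilson intervals: near 32.5% in sorted sample 1, between 65.1% and 72.9% in sorted sample 2 and near 41% in embryos.

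*fosl1a* encodes Fra-1, a Fos protein without the activation domain of c-Fos. It was at 202 CPM in A_1, 211 in Q_1, 237 in A_2 and 153 in Q_2, and at 0.780 and 0.921 in the embryos. The sorted samples overlapped between runs, and all were at least 167 times the higher embryo. Fitted log2 fold changes were 7.78 ± 0.44 for sorted sample 2 and 8.11 ± 0.54 for sorted sample 1. Its strand columns summed to between 1.02 and 1.31 times the count with the strand ignored. For the remaining 7 genes that ratio was 1.00.

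The Jun genes encode the part of AP-1 that no dimer lacks, and all 4 were already detected in embryos. *jun* was at 2343 CPM in A_1, 3881 in Q_1, 3761 in A_2 and 4308 in Q_2, against 119.6 and 110.0 in the embryos. Its range among sorted samples, 1.84-fold, was small beside the distance to the embryos. The fitted log2 fold changes of 5.10 ± 0.47 and 4.95 ± 0.63 correspond to 34.3-fold in sorted sample 2 and 30.9-fold in sorted sample 1.

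*junba* and *junbb* are the 2 zebrafish copies of JunB, a Jun protein whose gene is among the most quickly induced. *junba* was the steadiest of the 9 genes, at 1830.3 CPM in A_1, 2192 in Q_1, 2030.4 in A_2 and 2209 in Q_2. The embryos had 12.2 and 11.3, and sorted samples 1 and 2 overlapped. *junbb* was at 3704 CPM in A_1 and 5349 in Q_1, and higher, at 7388 and 6985, in A_2 and Q_2. Its embryo levels were 40.7 and 31.3 CPM. The paralogues had similar fitted log2 fold changes, 7.46 ± 0.49 for *junba* and 7.61 ± 0.56 for *junbb* in sorted sample 2, and 7.63 ± 0.66 and 7.18 ± 0.72 in sorted sample 1.

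*jund*, the Jun gene that in mammals is expressed at rest and changes least on stimulation, had the smallest change of the 9. It was at 241 CPM in A_1 and 335 in Q_1, and at 167 and 162 in A_2 and Q_2. The embryos had 16.7 and 12.6 CPM, so the lowest sorted sample was 9.69 times the higher embryo. Fitted log2 fold changes were 3.46 ± 0.31 for sorted sample 2 and 4.50 ± 0.46 for sorted sample 1, where 374 and 155 of the genes tested had larger ones.

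*egr1* and *atf3* lie beside the AP-1 dimer. Egr1 is a zinc finger protein under the serum response factor, and Atf3 is a leucine zipper protein of the stress response that can pair with Jun. *egr1* was at 987 CPM in A_1 and 928 in Q_1, and at 1859.8 and 1534 in A_2 and Q_2, with no overlap. It had 35.1 and 26.1 CPM in the embryos. *atf3* was at 873 CPM in A_1 and 468 in Q_1, and at 468 in A_2 and 279.7 in Q_2, against 8.40 and 3.69 in the embryos. Its spread among sorted samples, 3.12-fold, was the widest of the 9 genes. Fitted log2 fold changes were 5.77 ± 0.44 and 5.21 ± 0.55 for *egr1* in sorted samples 2 and 1, and 5.94 ± 0.47 and 7.09 ± 0.68 for *atf3*.

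**Figure D3:**
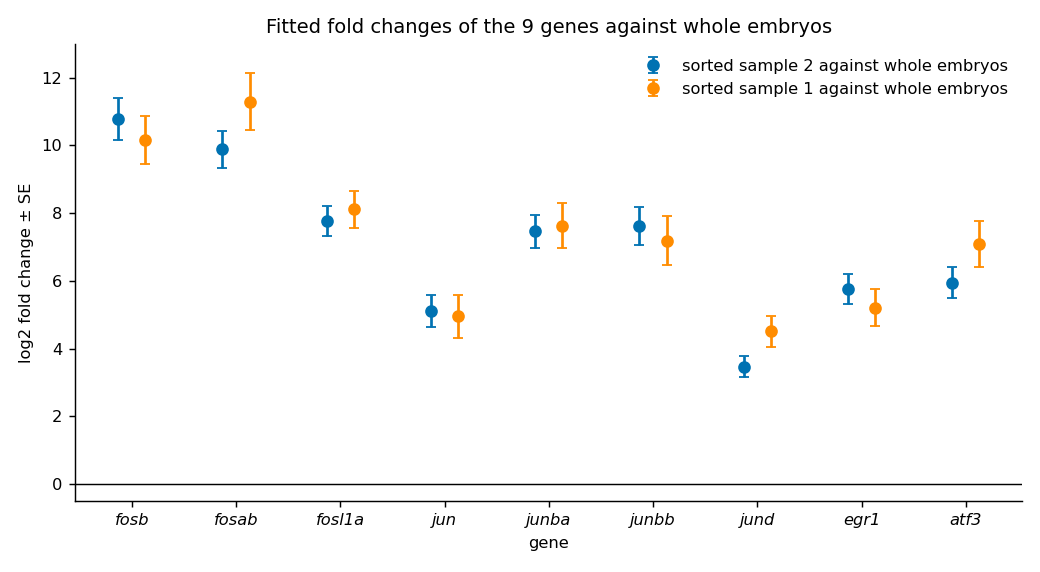
Fitted log2 fold change of each gene against whole embryos, with its SE, for sorted sample 2 and sorted sample 1 (2 RNA samples against the same 2 embryos each). Values run from 3.46 for *jund* to 10.78 for *fosb* in sorted sample 2, and from 4.50 for *jund* to 11.29 for *fosab* in sorted sample 1.

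Both comparisons with embryos share the 2 embryos, so they are not independent of each other. The median log2 fold change of the 9 genes was 7.46 in sorted sample 2 and 7.18 in sorted sample 1, where the median over all genes tested was -0.0032 and -0.06. Without Q_1, the values of sorted sample 1 ran from 4.39 for *jund* to 11.25 for *fosab*. Sorted cells and embryos differed in age, in dissociation and sorting and in the makeup of cells, and these cannot be told apart here, nor can more cells of a type and more RNA per cell. The cDNA of sorted sample 2 had more amplification cycles than that of the embryos, and the cDNA of sorted sample 1 had the same number as the embryos. Sorted sample 1 was, however, sequenced at another time than the embryos, so in its comparison the sequencing run cannot be told apart either.

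Markers of some cell types were higher in sorted cells together with the 9 genes. Of 17 endothelial genes, 15 were called higher in sorted sample 2 than in embryos and none lower, with summed levels of 772 to 973 CPM in the sorted samples against 157 and 201. *fli1a* itself (listed as FLI1, ENSDARG00000054632) was at 288 to 398 CPM against 24.8 and 30.7. All 10 cartilage genes were called higher in sorted sample 2 (summed 16734 to 53934 CPM in the sorted samples against 3129 and 4584). So were 7 of 8 leukocyte genes (955 to 2851 against 67.9 and 103). Over all genes 23.5% were called higher and 28.2% lower there. In sorted sample 1, 14 of 17 endothelial, all 10 cartilage and 5 of 8 leukocyte genes were called higher. There 1 leukocyte gene was called lower, and over all genes 17.3% were higher and 25.5% lower. None of these lists had a gene at 0 in the summed counts of a sorted sample. Skeletal muscle genes were called lower in 9 of 10 in sorted sample 2 and 8 of 10 in sorted sample 1. At 10258 to 17149 CPM in the sorted samples, against 79832 and 72775 in the embryos, they were not absent. Neural and glial genes were called lower in 9 of 10 in both, with 1 called higher in sorted sample 1. Epidermis genes were called lower in 8 of 8 and 7 of 8, and pigment cell genes in 7 of 8 and 6 of 7. Erythroid genes were mixed, with 2 higher and 1 lower of 8, and 3 higher and 1 lower of 6. All 9 liver and exocrine pancreas genes were called lower in both sorted samples. The part of these cells in the levels of the immediate early genes was not tested.

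Comparisons among sorted cells do not use the contrast by which the genes were chosen, and the genes were tested there. Sorted sample 2 was sequenced apart from sorted sample 1, and its cDNA was made from a smaller volume of RNA with more cycles. A difference named here as one between runs thus holds sample, RNA input, cycles and sequencing together. The part of each was not tested. Between the sequencing runs, with kit as a covariate, none of the 9 was called, where 10.9% of 19639 genes were (4.24% higher in sorted sample 2 and 6.70% lower). Of the 9 genes, 3 had an unadjusted p under 0.05 in edgeR, as did 4791 of all 19639 genes tested. *fosab* had the largest difference, a log2 fold change of -1.49 ± 0.56 (SE, 2 against 2 RNA samples) with an adjusted p of 0.060. *atf3* had -1.16 ± 0.54 (adjusted p = 0.154) and *jund* -1.13 ± 0.52 (adjusted p = 0.149). With the overlap reads included, *fosab* had -0.40 ± 0.53 (adjusted p = 0.694). DESeq2 called *fosab* (-1.53, adjusted p = 0.0169) and no other of the 9. Entered as separate libraries, which treats technical replicates as samples, *fosab*, *jund* and *atf3* were called. Without Q_1 and without the covariate, *atf3* was called (-1.73, adjusted p = 0.0050), and 4867 genes in all against 2149. Without A_2 that number was 331 and without A_1 it was 1270, and none of the 9 was called.

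Summed levels of cell markers also differed between these samples, though few single markers were called. The summed level of the cartilage genes was 16734 and 30631 CPM in A_1 and Q_1 and 53934 and 41155 in A_2 and Q_2. A_1, the sample with the highest *atf3*, also had the highest leukocyte sum (2851 CPM against 955 to 1295) and erythroid sum (6309 against 1445 to 2741). Between runs, 1 of 10 cartilage genes was called higher in sorted sample 2 and 0 lower. Of 8 leukocyte genes 0 were called, and of 7 erythroid genes 1 was called higher and 1 lower. Over all genes 4.24% were called higher and 6.70% lower. The median log2 fold change of the leukocyte genes was 0.39, higher in sorted sample 2, so the sums do not speak for each gene of a list. The part of these cells in the levels of the 9 genes was not tested.

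The other 6 genes had log2 fold changes between runs from -0.45 ± 0.51 for *fosl1a* to 0.48 ± 0.54 for *egr1*, with adjusted p from 0.595 to 0.956. For *junba* the sign depended on the scaling, as its mean CPM was slightly higher in sorted sample 2 and its fitted value was -0.26 ± 0.54. In CPM, 6 of the 9 genes did not overlap between runs. The share of all genes without overlap was not computed, so nothing is read from that count. *fosb*, *junbb* and *egr1* were higher in sorted sample 2, and *fosab*, *jund* and *atf3* were lower, *atf3* by less than 1 CPM between Q_1 and A_2. The median of the 9 fitted values was -0.26 (0.05 over all genes tested), and the value of *jun* changed sign with a sample left out.

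RNA isolation with the RNeasy plus micro kit against the RNAqueous micro kit, over both runs with run as a covariate, changed none of the 9 by the test, and only 0.117% of 19639 genes were called. No member had an unadjusted p under 0.05 in edgeR, and DESeq2 called none of the 9. *atf3* had the largest difference, -0.88 ± 0.54 (adjusted p = 0.9999), and was lower with RNeasy in both runs (0.537 times A_1 in Q_1 and 0.598 times A_2 in Q_2). *jun* was higher with RNeasy in both runs, 1.66-fold and 1.15-fold, with a fitted log2 fold change of 0.41 ± 0.54 (adjusted p = 0.9999). The SE of the 9 genes ran from 0.49 to 0.54 with 2 RNA samples per kit. A difference between kits that was larger than its SE could go uncalled, as that of *atf3* did. Among all genes, 23 were called and 703 had an unadjusted p under 0.05. Without A_2 and without the covariate 762 were called.

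Against the smaller spread of technical replicates, differences between single RNA samples did stand out. Between Q_2 and A_2, 28.3% of 19027 genes were called (14.6% higher in Q_2 and 13.7% lower), and 5 of the 9 genes. This compares 2 RNA samples and not the kits. *atf3* was at 270.0 and 288 CPM in Q_2a and Q_2b against 490.4 and 435 in A_2a and A_2b, a log2 fold change of -0.62 ± 0.08 (adjusted p = 6.5e-05). *fosl1a* was at 140.4 and 165 CPM against 245 and 226 (-0.51 ± 0.09, adjusted p = 0.00067). *fosb* was at 123 and 134 CPM against 209 and 166 (-0.43 ± 0.10, adjusted p = 0.0041). For these 3 genes, and for *egr1*, the Q_2 libraries lay below the A_2 libraries without overlap, and for *junba* they lay above. The share of all genes without such overlap was not computed, so nothing is read from this.

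*jun* and *junba* were called higher in Q_2 (0.28 ± 0.09, adjusted p = 0.0282, and 0.23 ± 0.07, adjusted p = 0.0210). The libraries of *jun* overlapped in CPM, and its call was lost with DESeq2 (adjusted p = 0.0549), with the stricter filter of 10 CPM and without A_2a or Q_2a (0.0862 and 0.197). The call of *junba* was lost with the letter of the technical replicate as a replicate block (adjusted p = 0.112) and without Q_2a or Q_2b (0.242 and 0.139). *fosab*, *junbb*, *jund* and *egr1* were not called. Without A_2a, *fosab* was called higher in Q_2 (0.38, adjusted p = 7.5e-07) and *junbb* lower (-0.15, adjusted p = 0.0383), and without A_2b *junbb* was called higher (0.18, adjusted p = 0.0163). *fosab* was also called without Q_2a (0.34, adjusted p = 0.0405) with the overlap reads included (0.22, adjusted p = 0.0193) and with no filter on low counts. Technical replicates of one RNA differed by at most 1.25-fold in any of the 9 genes.

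**Figure D4:**
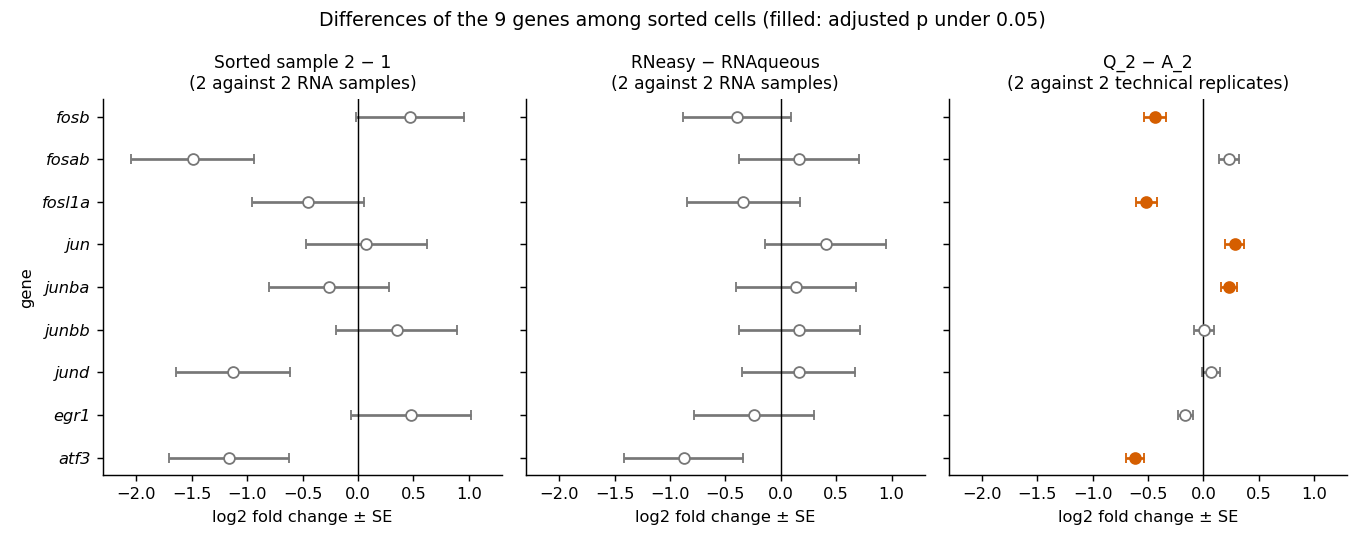
Log2 fold change with its SE of the 9 genes between sorted samples 2 and 1, between kits over both runs, and between the Q_2 and A_2 libraries. Filled points passed an adjusted p of 0.05: none in the first 2 panels, and *fosb*, *fosl1a*, *jun*, *junba* and *atf3* in the third.

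All gene lists here, the cell markers included, were written with earlier results of these data known. Their counts beside the shares of all genes are therefore descriptive. Where a gene is said to have risen or fallen, a fitted difference between sorted cells and embryos is meant, not a change followed in time. Other leucine zipper genes, a mixed list of several families, were higher in sorted cells as a majority. It was not checked which of them can pair with Fos or Jun. Of 32 tested, 20 were called higher and 1 lower in sorted sample 2 against embryos, where 23.5% and 28.2% of all genes were. Their median log2 fold change was 1.66. In sorted sample 1 there were 17 higher and 3 lower of 31, with a median of 1.60. The largest change was that of a *jdp2* gene (listed as JDP2, ENSDARG00000020133), whose mammalian product represses AP-1 as a partner of Jun. It was at 3253, 2109, 1746 and 2197 CPM in A_1, Q_1, A_2 and Q_2 against 4.74 and 4.96 in the embryos (8.62 ± 0.53, adjusted p = 2.9e-07). *batf2*, of a family of Jun partners, rose by 7.32 ± 0.51 and *mafk*, a small Maf gene, by 3.78 ± 0.38. *cebpb*, a leucine zipper gene of inflammation, rose by 4.10 ± 0.39. The 4 other Fos genes of this list were also picked for naming after their values were seen. *fosaa*, the second copy of c-Fos, rose by 4.74 ± 0.50 (12.1 and 8.06 CPM in A_2 and Q_2 against 0.360 and 0.358), and *fosl2* by 2.26 ± 0.35. *fosl2l* was at 0.36 ± 0.82 (adjusted p = 0.736), and *fosl1b*, at no more than 0.136 CPM in any RNA sample, was too low to be tested. *mafa*, a large Maf gene of lens and islet, fell by 2.61 on the log2 scale (SE 0.35).

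Immediate early genes outside the AP-1 family were called higher in 46 of 57 and lower in 3 in sorted sample 2, with a median log2 fold change of 2.41, where 23.5% and 28.2% of all genes were. In sorted sample 1 there were 42 higher and 2 lower of 56 (median 1.95), where 17.3% and 25.5% of all genes were. *ier2a* and *ier2b*, small nuclear proteins of the early response, rose by 6.54 ± 0.47 and 6.33 ± 0.41 (adjusted p = 6.5e-07 and 3.5e-07). *ier2a* was at 1908, 1946, 1674 and 1958 CPM in A_1, Q_1, A_2 and Q_2 against 18.3 and 19.5 in the embryos. The inflammatory cytokine gene *il1b* was at 33.1, 40.0, 51.8 and 52.5 CPM against 0.660 and 0.358 (6.66 ± 0.41). A *socs3* gene (listed as SOCS3, ENSDARG00000026611), an inhibitor of cytokine signalling, rose by 6.15 ± 0.45.

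The signalling genes upstream had smaller median differences than the early genes themselves, a contrast that was not tested. Of 33 MAP kinase and serum response factor cofactor genes, 15 were called higher and 3 lower in sorted sample 2 (median 0.57), beside 23.5% and 28.2% of all genes. In sorted sample 1 there were 3 higher and 3 lower (median 0.16), or 9.09% each, beside 17.3% and 25.5% of all genes. The count of 15 was 5 without A_2 and 9 without Q_2, and over all genes 5572 were called without A_2 against 11045. *elk3*, a serum response factor partner that is also a gene of vessels, rose by 2.96 ± 0.31. *map2k1*, a kinase of the ERK pathway, fell by 2.11 on the log2 scale (SE 0.36), with 58.7% of its reads on an overlap. Of 16 genes of feedback inhibitors, 12 were called higher and 1 lower in sorted sample 2 (median 1.31, beside 23.5% and 28.2% of all genes), and 6 and 1 in sorted sample 1 (median 0.86, beside 17.3% and 25.5%). With sorted sample 1 added to sorted sample 2, the count of 12 was 7. The MAP kinase phosphatases *dusp2*, *dusp1* and *dusp5* rose by 4.45 ± 0.34, 3.93 ± 0.35 and 3.09 ± 0.33. *spry4*, a Sprouty inhibitor of receptor signalling, rose by 2.53 ± 0.32 in sorted sample 2, and was at 0.97 ± 0.37 in sorted sample 1 (adjusted p = 0.051).

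Heat shock genes were high together with the immediate early genes. Of 27 heat shock and chaperone genes, 17 were called higher and 3 lower in sorted sample 2 (median 1.52, beside 23.5% and 28.2% of all genes), and 14 and 1 in sorted sample 1 (median 1.39, beside 17.3% and 25.5%). *hsp70l*, an inducible Hsp70 chaperone gene, was at 3369 CPM in A_1 and 3318 in Q_1, and at 10637 and 7229.8 in A_2 and Q_2, against 10.4 and 5.37 in the embryos (10.13 ± 0.67, adjusted p = 3.9e-07). *hsp70.1* rose by 10.57 ± 0.52 and *hsp70.3* by 8.40 ± 0.66. The Hsp70 copies are near-identical and reads on several loci were not counted, so their single values are uncertain. *dnajb1b*, a co-chaperone of Hsp70, rose by 7.16 ± 0.55, with 67.2% of its reads on an overlap with another gene. The mitochondrial chaperone gene *hspe1* fell by 1.23 on the log2 scale (SE 0.32), and *hspb8* and *hsp90aa1.1* fell by 1.28 and 1.16 (SE 0.33 and 0.29). In sorted sample 2 just 1 gene of the list was called lower without A_2, 1 without Q_2, and 0 with sorted sample 1 added. For the 3 genes sorted sample 1 gave 0.42, -0.23 and 0.22 with adjusted p of 0.56 to 0.65. The list does not hold another gene given as HSP90AA1 (ENSDARG00000024746), which was higher in sorted cells. It was at 5846, 3479, 4574 and 3046 CPM in A_1, Q_1, A_2 and Q_2 against 75.7 and 113 in the embryos.

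Genes listed as AP-1 targets, by families known from mammals, were called higher in 12 of 18 and lower in 3 in sorted sample 2. Their median was 1.70, beside 23.5% and 28.2% of all genes called. In sorted sample 1, 10 were called higher and 3 lower of 18 (median 1.65, beside 17.3% and 25.5%). With the filter of 10 CPM, under which fewer genes were tested, the lower calls were lost in both, and without Q_unsorted 1 lower call was counted in sorted sample 1. The collagenase gene *mmp13a* was at 80.2, 121, 114 and 121 CPM in A_1, Q_1, A_2 and Q_2 against 1.44 and 3.28 in the embryos (5.55 ± 0.45). *mmp9*, a gelatinase, rose by 4.10 ± 0.33. *cxcl18b*, a chemokine gene whose counterpart in mammals was not checked, rose by 5.30 ± 0.44. Of 14 reference genes none was called higher and 3, or 21.4%, were called lower in sorted sample 2 (median -0.10). Over all genes 23.5% were called higher and 28.2% lower. *gapdh*, an enzyme of glycolysis, was among the lower ones, at -2.93 ± 0.45. Of the reference genes 1 was called higher by DESeq2 and 2 with the kit as a replicate block. Without Q_1, higher calls in sorted sample 1 changed little or not in the leucine zipper, other immediate early, heat shock and AP-1 target lists. For the feedback inhibitors and the reference genes, both higher and lower calls changed in number.

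**Figure D5:**
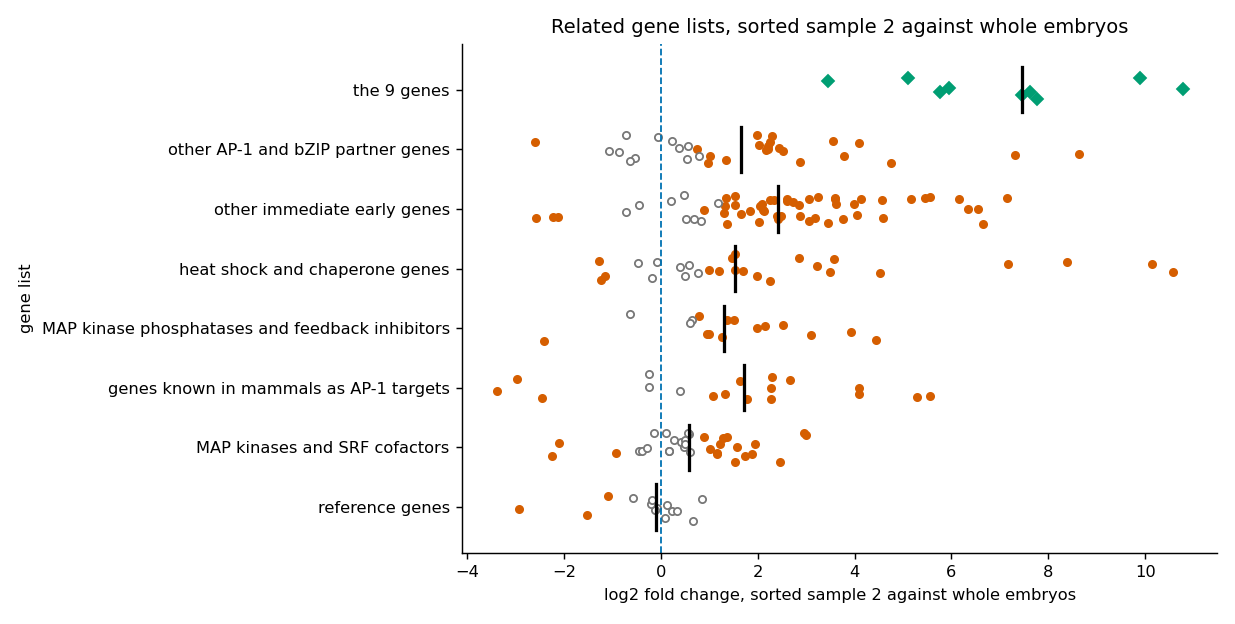
Log2 fold change of sorted sample 2 against whole embryos for the 9 genes (diamonds, no test) and for each tested gene of 7 related lists. Filled circles passed an adjusted p of 0.05, black bars are medians (7.46 for the 9 genes, 2.41 for the other immediate early genes, -0.10 for reference genes), and the dashed line is the median of all genes tested.

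Among 10194 other genes averaging 10 CPM or more, those most like the mean profile of the 9 genes were found by the root mean square difference of centred log2(CPM + 1) over the 6 RNA samples. *ier2a* was nearest, at 0.168, followed by *ier2b* (0.338), a HES1 gene (ENSDARG00000006514, 0.392), *dnajb1b* (0.464), SOCS3 (ENSDARG00000026611, 0.552) and BTG2 (0.567). HSP90AA1 (ENSDARG00000024746, 0.615), GADD45B (ENSDARG00000013576, 0.641) and CCN1 (0.645) were also among them. Of the 9 genes themselves, *fosl1a* lay nearest to the mean (0.206) and *fosab* (1.70) and *jund* (1.31) farthest. The 1 CPM added to each level shrinks the change of genes under 1 CPM in embryos, as *fosb* and *fosl1a* were. This order is therefore not that of the fitted fold changes, and *fosb* was at 0.404. The 5 genes nearest to *fosab* alone were JDP2 (ENSDARG00000020133, 0.758), *hsp70.1* (0.812), si:ch73-335l21.4 (1.04), *hsp70l* (1.12) and HSPA2 (ENSDARG00000092362, 1.32). These are descriptions over 6 samples, with no test. Sorted cells and embryos differed in age, in dissociation and sorting and in the makeup of cells, and sorted sample 1 also in sequencing run.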

How the data were processed

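The authors aligned reads of 8 libraries with STAR (version 2 per the submitters' notes, build GRCz10) and deposited counts per gene as whole numbers in 3 columns, with the strand ignored and for each strand, unnormalized and without molecular identifiers. Counts with the strand ignored are used throughout, as the kit does not mark strand. Rows that name no gene held 23.3% to 30.3% of reads and were left out. Counts on genes ranged from 10763174 to 19537939 per library, and technical replicates were summed per RNA sample, except for Q_2 against A_2. CPM were computed here from those totals.

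Genes kept by filterByExpr were tested in edgeR 4.0.16 (R 4.3.3) by glmQLFit and glmQLFTest with TMM scaling and Benjamini-Hochberg adjustment over all genes tested, at 0.05. The SE was derived from the log2 fold change and its F statistic. DESeq2 1.42.0, RLE size factors, other filters, strand sums, separate libraries, replicate blocks and left-out samples were alternatives. In simulated counts 200 genes were changed 4-fold. Of these, edgeR recovered 95.0% in sorted sample 2 against embryos (21362 genes) and 94.5% in sorted sample 1 against embryos (20130). It recovered 94.5% between runs (19589), 92.5% between kits (19610) and 97.0% in Q_2 against A_2 (18974). Unchanged genes made up between 1.07% (kits) and 6.90% (sorted sample 1 against embryos) of its calls. Whether these counts vary between samples as much as the real ones was not tested. The shares recovered are therefore no measure of how many real differences were missed.

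The 9 genes and all lists were chosen with earlier results of these data known. From each list the text names genes among the 4 largest and 4 smallest log2 fold changes of sorted sample 2 against embryos, of those called and with a mean of at least 10 CPM; 4 Fos genes and the cell type markers are named beside the rule. Symbols were matched to gene IDs through a name table, which gives some zebrafish genes in human form, with the ID added here. Of the Ensembl genes a few list symbols found no match and were left out. Groups shared only a kit or a letter: deviations of samples with the same kit correlated at a Spearman rho of 0.40 (sorted sample 2 with embryos) and -0.25 (sorted sample 1 with embryos), and those with the same letter at -0.20. One gene among the 10 most like the mean profile is not reported here. Coordinates, gene lengths and sequences were not used here.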

Additional observations from a re-analysis of the deposited data

Results flagged for a closer look

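In unscaled CPM, *fosl1a* lay on opposite sides in the kit comparisons of the 2 sorted samples. Q_1 was at 0.063 against A_1 on the log2 scale, with 1 library each, and Q_2 was at -0.63 against A_2, where both Q_2 libraries lay below both A_2 libraries. The value of sorted sample 1 is smaller than the distance between technical replicates of Q_2 (140.4 and 165 CPM) and depends on the scaling. The fitted kit values of *fosl1a*, with TMM or other scaling, were below 0 under each alternative run (-0.68 to -0.039). The difference between the sorted samples was not tested.

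Reads counted for *fosab* only in the strand columns, which the comparisons above leave out, made up 68.3% of its reads in the strand columns in A_2 and 69.0% in Q_2, above the 40.7% and 41.2% of the whole embryos. The embryo shares have 95% intervals of 29.1 to 53.4 and 30.3 to 53.0, which hold the shares of A_1 and Q_1 (32.5% and 32.6%). Which of the overlapping genes these reads came from cannot be told apart.

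In none of the 9 genes did a sorted RNA sample lie apart from the other 3 by Dixon's ratio at its 95% critical value.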

How the results depend on the processing

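Whether a gene was called in sorted sample 2 against embryos (11045 genes) changed most with fewer genes tested (6266 with at least 10 CPM in 2 samples) and with left-out samples (5572, without A_2, to 10466). For sorted sample 1 (8670 genes) the 10 CPM filter gave 4579 and left-out samples 5912 to 8518. Between runs (2149 genes) DESeq2 gave 1005, the 10 CPM filter 1286, separate libraries 5218, no replicate block 1414 and left-out samples without the covariate 331 to 4867. Between kits (23 genes) DESeq2 gave 11, the 10 CPM filter 12, no replicate block 0 and left-out samples 1 to 762. Where a left-out sample leaves 1 in its group, that sample is assumed to vary like the others. Apart from the constructions named, the cause was not tested.

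The kit as a replicate block gave 11718 genes for sorted sample 2 and 7931 for sorted sample 1 against embryos. The letter as a replicate block gave 5315 genes between Q_2 and A_2 against 5378, and ended the call of *junba* alone among the 9 genes. Letters crossed as a replicate block, chosen after seeing the data, gave 5247. Same-numbered sorted samples share more than that label, as A_1 and Q_1 were sequenced at another time than A_2 and Q_2.

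Against embryos all 9 genes kept their direction under each alternative run. Values near 0 changed sign elsewhere. With samples left out, *jun* between runs ranged from -0.15 to 0.30, the value being -0.11 without Q_2. Between kits *fosab* ranged from -0.78 to 1.095 (-0.44 without A_2), *junba* from -0.047 to 0.31, *junbb* from -0.076 to 0.41, *jund* from -0.56 to 0.80 (-0.24 without A_2) and *egr1* from -0.54 to 0.0084. Between Q_2 and A_2, *junbb* was at 0.0028, and at -0.0082 with DESeq2 and with RLE size factors, -0.011 with the 10 CPM filter, -0.0049 with strand sums and -0.15 to 0.18 with a library left out (-0.065 without Q_2a).

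With 2 RNA samples a group from 1 pool of fish, differences between runs or kits that are larger than the SE given can still be missed. *fosb* in embryos rests on 3 counts.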
